A study of Mus musculus with 12 samples.

Results

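Emp1, Emp2, Emp3 and Pmp22 encode the epithelial membrane proteins and peripheral myelin protein 22, a small family of related membrane glycoproteins. The 4 genes were taken by name from 54532 genes counted in N9 cells, an immortalised mouse microglial line. Emp1 was chosen by its measured values: it had the smallest p of all tested genes for high glucose and for high fructose under LPS. Its values in those 2 comparisons are therefore a description and carry no test. Emp2, Emp3 and Pmp22 were taken because of their relation to Emp1, with earlier results of these data known.

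The series held 12 RNA sequencing libraries in 4 groups of 3, all from N9 cells. High fructose with LPS was control medium with 15 mM fructose, and high glucose with LPS was control medium with 15 mM glucose. Control medium was DMEM without glucose to which dialysed serum, 3 mM glucose and 5 mM fructose were added, and it was used with LPS and without LPS. Cultures stood in their medium for 18 h, and LPS, a component of the bacterial outer membrane that activates microglia, was then given at 1 µg/ml for 6 h to all groups except control medium without LPS. The labels do not say whether 15 mM is the final or the added concentration, and the series holds no culture with raised sugar and no LPS. Whether the 3 libraries of a group are separate cultures is not stated, so a p-value here speaks of the spread among the libraries alone, and that spread may be technical. N9 is a single cell line, and in bulk RNA a change in level per cell cannot be told apart from a change in the share of cells that express a gene.

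Proteins of this family cross the membrane 4 times, a layout they share with the claudins of tight junctions, and carry N-linked sugar on an extracellular loop. PMP22 is best known as a component of compact myelin in Schwann cells, where a change in gene dosage causes hereditary neuropathy, and it was also isolated as a gene induced in growth-arrested fibroblasts. The EMP proteins were named for epithelia, and binding to integrins and to the P2X7 receptor has been reported for members of the family.

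Each library held 15453776 to 17956772 gene counts, and 12766 genes passed the filter on low counts. Of 13 microglia and macrophage markers, at least 11 had 5 or more reads in every library of each group. Csf1r, the CSF1 receptor, lay at 383 to 477 CPM (counts scaled to library size) and Cd68, a lysosomal protein of macrophages, at 589 to 696 CPM. The microglial markers Aif1, at 2 to 9 counts, and P2ry12, at 1 to 6 counts per library, were near 0. Sox10, a defining factor of Schwann cells and oligodendrocytes, had 0 counts in all 12 libraries, and the oligodendrocyte gene Mog had at most 1. Of the same 8 markers, the myelin gene Mbp had 443 to 672 counts per library (27.3 to 38.5 CPM) and Prx 6 to 32. Summed, these 8 ranged over 34 to 39.4 CPM in high fructose with LPS and 30 to 32.5 in high glucose with LPS. They ranged over 29.3 to 29.6 CPM in control medium with LPS and 34.2 to 40.3 without LPS. Summed epithelial markers ranged over 0.062 to 4.13 CPM in high fructose with LPS, 0 to 17.7 in high glucose with LPS, 0.0597 to 3.28 in control medium with LPS and 0.287 to 2.96 in control medium without LPS. The 17.7 CPM came from 1 high glucose library, with 201 counts of the keratin gene Krt8. Emp1 lay at 640.1 CPM in that library and at 610.9 and 621.9 CPM in the other high glucose libraries. Summed fibroblast markers ranged over 0.789 to 14.8, 0.737 to 6.63, 0.776 to 5.65 and 0.391 to 8.48 CPM in the same order of groups. The part of these epithelial, fibroblast and myelin gene transcripts in the member results was not tested.

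The genes lie on different chromosomes of mm10. Emp1 (ENSMUSG00000030208) spans chr6:135362545-135383173 on the plus strand, with 5935 exonic bases. Emp2 (ENSMUSG00000022505) spans chr16:10281749-10313968 on the minus strand, with 8644 exonic bases. Emp3 (ENSMUSG00000040212) spans chr7:45918023-45921404 on the minus strand, with 1071 exonic bases. Pmp22 (ENSMUSG00000018217) spans chr11:63128982-63159547 on the plus strand, with 2354 exonic bases. No exonic base of these genes overlapped another gene of GENCODE M21 on either strand. Coding identity ran from 62.1% between Emp1 and Pmp22 to 70.6% between Emp1 and Emp2, and the longest exact run shared by 2 members was 22 bases. The encoded proteins have 160 residues for Emp1, 172 for Emp2, 163 for Emp3 and 160 for Pmp22.

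The promoters of the expressed members are shown because Emp1, Emp3 and Pmp22 had different patterns over the 4 groups. RefSeq gave 9 windows for the 4 genes on GRCm38.p6, each from 250 bases before to 50 after a transcript start. They were searched on both strands for 5 motifs: the AP-1 site TGANTCA, bound by Fos and Jun proteins, the E-box in its form CACGTG, bound by Myc and related factors, and the cyclic AMP response element, or CRE, TGACGTCA. The others were the TATA box, searched as TATAAA, which sets the start of transcription at some promoters, and the GC box bound by Sp factors, searched as GGGCGG. The first Emp1 window held a pair of AP-1 matches, beginning at positions -145 and -25 from the start. Of 32851 mouse promoter windows of the same length, 7.81% held this motif and 0.46% held it 2 or more times. Windows of 30 bases around a match follow, 5′ to 3′ on the gene's own strand, with the motif in capitals (CCGCCC is the GC box read on the other strand). They lie at chr6:135362775-135362804, chr6:135362895-135362924, chr7:45921449-45921478 and chr11:63131380-63131409, in the order printed.
Emp1, AP-1 at -145: gtctgtgtgtcTGAGTCAgagggagctaca
Emp1, AP-1 at -25: taaatccagacTGATTCAtagaaactcctt
Emp3, TATA box at -40: ggctaaagtggaTATAAAagggttggtata
Pmp22, GC box at -65: gcagtcggcgccCCGCCCgcccgcctgccc

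The Emp3 TATA box is a motif held by 13.62% of all windows. GC box matches, which occur in 35.66% of all windows, stood in 2 of the 4 Pmp22 windows, in the Emp2 window and in the first Emp1 window, and several Pmp22 matches overlap each other. AP-1 letters were not in the Emp2, Emp3 or Pmp22 windows, and E-box and CRE letters were in none of the 9. A match is a description of the letters, and its absence covers these windows only.

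Emp1 was a strongly expressed gene whose level stood highest in high fructose. Its FPKM (fragments per kilobase of exon, scaled to library size) was 138.9, 136.6 and 132.6 in high fructose with LPS, 102.4, 107.1 and 103.8 in high glucose with LPS, 78.17, 77.92 and 77.36 in control medium with LPS, and 71.07, 65.65 and 67.31 in control medium without LPS. All 4 groups were apart: every library of a group lay above every library of the next group in that order. The step from control medium to high glucose under LPS is a comparison that chose Emp1. For the genes named in this text, the share of all tested genes whose groups do not overlap is not given. The values rest on 7001 to 13443 counts per library. Among 16413 protein-coding genes with reads, 320 had a higher mean FPKM than Emp1 in high fructose with LPS, 458 in high glucose with LPS, 654 in control medium with LPS and 693 in control medium without LPS.

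In high fructose with LPS, Emp1 averaged 136 ± 3.16 FPKM, against 77.82 ± 0.415 FPKM in control medium with LPS (SD, n = 3 each). The edgeR estimate was 1.75-fold, or 0.81 ± 0.04 on the log2 scale (SE, 95% interval 0.72 to 0.90). In high glucose with LPS it averaged 104.4 ± 2.41 FPKM against the same control libraries, which was 1.35-fold, or 0.43 ± 0.04 on the log2 scale (95% interval 0.34 to 0.52). These are the comparisons that chose Emp1, and they share their control libraries. The SD of Emp1 in those libraries was 0.533% of the mean, against 2.31% to 4.08% in the other groups. Whether that low spread comes from the choice of Emp1 was not tested. The gene with the next smallest p was Mmp19, a matrix metalloproteinase, for high fructose (log2 fold change 1.38 ± 0.07) and Il1rn, the interleukin-1 receptor antagonist, for high glucose (0.41 ± 0.04). Other genes changed more: 96.6% of tested genes had a smaller absolute log2 fold change than Emp1 in high fructose and 92% in high glucose, and the rest a larger one.

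The 2 sugars were also set against each other. Emp1 was 1.30-fold higher in high fructose with LPS than in high glucose with LPS, at 0.38 ± 0.04 on the log2 scale (95% interval 0.29 to 0.47, edgeR adjusted p = 2.51e-05). The estimate for LPS alone was smaller. Emp1 was 1.14-fold higher in control medium with LPS (77.82 ± 0.415 FPKM) than without LPS (68.01 ± 2.78 FPKM, SD, n = 3 each), a log2 fold change of 0.19 ± 0.04 with an edgeR adjusted p of 0.00153. When libraries were scaled by their totals alone, this LPS difference was 0.10 with an adjusted p of 0.0643. Both comparisons share libraries with those that chose Emp1. The estimate between the sugars is also the difference of the 2 estimates that chose Emp1, so its p is no independent support.

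**Figure D1:**
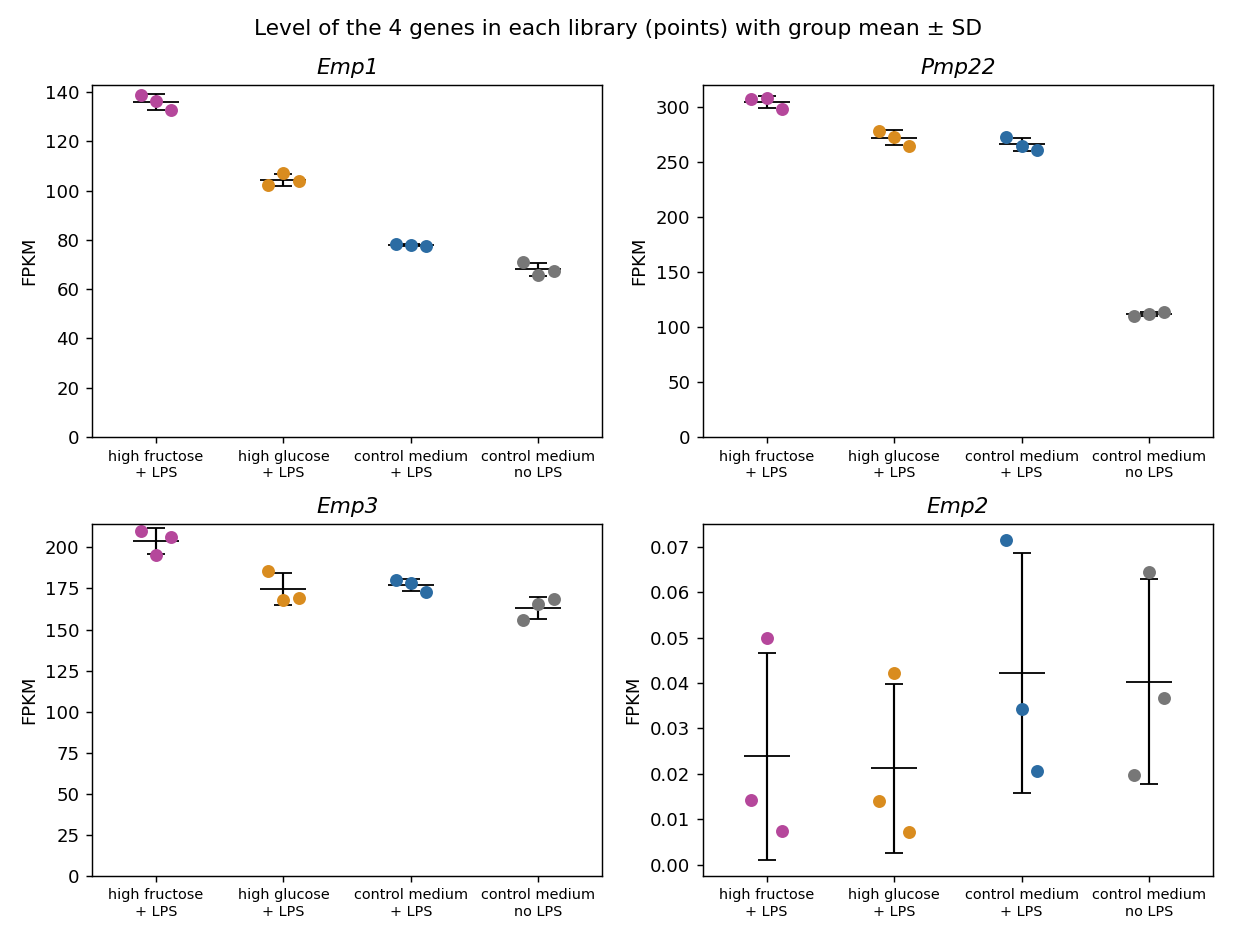
Level of Emp1, Emp3, Pmp22 and Emp2 (FPKM, vertical axes) in the 12 libraries by group. Points are libraries, bars the mean and SD (n = 3). Emp1 steps down over the 4 groups without overlap, and was chosen by its sugar comparisons with control medium under LPS. Pmp22 separates the LPS-treated groups (260.8 to 308 FPKM) from control medium without LPS (110.4 to 114 FPKM), and Emp2 stays below 0.1 FPKM.

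Pmp22, the myelin protein gene, had the highest FPKM of the members in every LPS-treated group, and the largest LPS estimate among them. FPKM divides by all exonic bases, 5935 for Emp1 and 2354 for Pmp22, whose longest coding transcripts have 2911 and 1822. By CPM, Pmp22 was below Emp1 in high fructose with LPS (721.6 against 812.9). It was above Emp1 in high glucose with LPS (644.8 against 624.3) and control medium with LPS (629.2 against 463.9). Pmp22 FPKM was 272.6, 264.8 and 260.8 in control medium with LPS, against 110.4, 111.7 and 114 in control medium without LPS. The groups did not overlap. This was a 2.37-fold rise, or 1.25 ± 0.04 on the log2 scale (SE, edgeR adjusted p = 4.31e-14), larger in absolute size than the change of 95.6% of tested genes.

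High fructose added a smaller step to Pmp22. The libraries of high fructose with LPS lay at 307.3, 308 and 298.1 FPKM, and those of high glucose with LPS at 278.5, 272.5 and 264.9 FPKM. Every high fructose library was above every other LPS-treated library, while high glucose overlapped control medium with LPS. Pmp22 was 1.15-fold higher in high fructose than in control medium under LPS (log2 fold change 0.20 ± 0.04, edgeR adjusted p = 0.00413). Between high glucose and control medium under LPS the difference was 0.04 ± 0.04 on the log2 scale (95% interval -0.05 to 0.12, adjusted p = 0.762). Against high glucose, high fructose was higher by 0.16 ± 0.04 (edgeR adjusted p = 0.0239). This last call was lost when 1 of 4 libraries was left out (high fructose 1 or 2, high glucose 2 or 3, adjusted p up to 0.114), when genes of low count were kept (0.0577) and when only those 2 groups were fitted (0.141).

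Emp3, the member with the fewest exonic bases, spanned the narrowest range of the expressed members. Its FPKM was 210.2, 195.2 and 206.3 in high fructose with LPS, 185.9, 168.2 and 169.5 in high glucose with LPS, 180.2, 178.5 and 173.1 in control medium with LPS, and 155.7, 165.6 and 168.3 in control medium without LPS. High fructose did not overlap the other groups, whereas high glucose and control medium with LPS overlapped. Emp3 rose in high fructose against control medium under LPS by 0.21 ± 0.05 on the log2 scale (edgeR adjusted p = 0.0245), and against high glucose by 0.22 ± 0.05 (adjusted p = 0.0187). The first call was lost without any 1 of 5 libraries (each control medium library with LPS, or high fructose 1 or 3, adjusted p up to 0.133). The second was lost without any 1 of 4 (high fructose 1 or 3, high glucose 2 or 3, up to 0.0999) and when only those 2 groups were fitted (0.0874).

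High glucose against control medium under LPS gave -0.02 ± 0.05 on the log2 scale for Emp3 (95% interval -0.13 to 0.09, edgeR adjusted p = 0.927). The LPS comparison gave 0.12 ± 0.05 with an adjusted p of 0.101. The libraries of the groups did not overlap in FPKM or CPM, but did over library totals alone. Library 3 of control medium without LPS held 3411 Emp3 counts of 17956772, and library 3 with LPS held 3121 of 16949647. The LPS estimate for Emp3 depended on the scaling: it was 0.0281 (adjusted p = 0.715) with library totals alone and 0.07 (0.343) with upper-quartile factors. It passed the threshold in 1 setting, the fit of only those 2 groups (0.126, adjusted p = 0.0424).

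**Figure D2:**
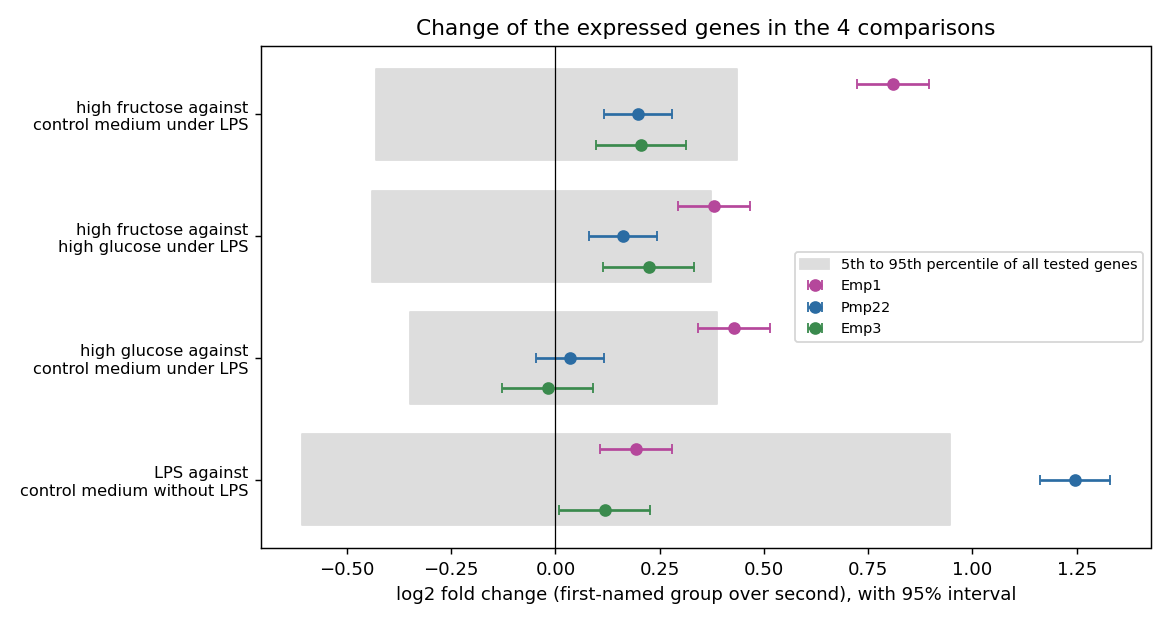
Log2 fold change of Emp1, Pmp22 and Emp3 (horizontal axis, points with 95% intervals) in the 4 comparisons. Grey bars span the 5th to the 95th percentile of all 12766 tested genes. Emp1 lies past the bars for high fructose and high glucose against control medium (0.81 and 0.43), the comparisons that chose it. For fructose against glucose it lies just past the bar (0.38, bar edge 0.373), with an interval of 0.29 to 0.47. The high glucose interval (0.34 to 0.52) also spans its bar edge of 0.388. Pmp22 lies past the bar for LPS (1.25).

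Emp2, a member tied to integrins and caveolae in other cells, was nearly silent. It had 2, 7 and 1 counts in high fructose with LPS, 2, 6 and 1 in high glucose with LPS, 10, 5 and 3 in control medium with LPS, and 3, 10 and 6 in control medium without LPS. The groups overlapped throughout. It did not pass the filter on low counts. Therefore only ratios of summed counts, scaled by library size and TMM factors, are given, with exact 95% intervals that cover counting error only. The ratio was 0.58 (0.239 to 1.32) for high fructose and 0.513 (0.203 to 1.2) for high glucose against control medium under LPS. It was 1.03 (0.512 to 2.08) for LPS and 1.13 (0.413 to 3.14) for high fructose against high glucose. With 1 library left out the log2 ratio ran from -1.93 (without high fructose 2) to -0.186 (without control medium with LPS 1) for high fructose, and from -1.95 (without high glucose 2) to -0.359 (without control medium with LPS 1) for high glucose. For high fructose against high glucose it ran from -0.963 (without high fructose 2) to 1.16 (without high glucose 2), and for LPS from -0.554 (without control medium with LPS 1) to 0.545 (without control medium without LPS 2). No difference was detectable at this depth. In the longest Emp2 transcript, of 3440 bases, 3.78% lay in stretches of 75 bases or more with at least 98% identity to transcripts of other genes. The share was 0% in the longest transcript of each other member.

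Calls were counted over Emp3 and Pmp22, since Emp1 was chosen on these libraries. Under LPS, 1 of the 2 (Pmp22) was called higher at an adjusted p below 0.05, against 28.8% of all tested genes called, 15.2% higher and 13.6% lower. Higher genes made up 52.8% of all LPS calls, a share that was 32.4% with library totals alone and 41.4% with upper-quartile factors. In high fructose against control medium under LPS, both Emp3 and Pmp22 were called higher. Of all tested genes 4.91% were called there, 2.37% higher and 2.55% lower. In high fructose against high glucose both were called higher, against 3.72% of all tested genes called, 1.84% higher and 1.88% lower. In high glucose against control medium, edgeR called 0 of Emp3 and Pmp22, DESeq2 and limma also called 0, and 0 had an unadjusted p under 0.05. The background there was 1.56% of tested genes called, 0.587% higher and 0.971% lower.

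The balance within the family shifted with LPS. Shares and ratios are in FPKM over all exonic bases, and another gene length would change their size. The summed FPKM of the members was 644.4 ± 10.5 in high fructose with LPS, 551 ± 14.5 in high glucose with LPS, 521.2 ± 9.89 in control medium with LPS and 343.3 ± 6.26 in control medium without LPS (SD, n = 3 each). Pmp22 made up 51.05% ± 0.263 of that sum in control medium with LPS, against 32.64% ± 0.089 in control medium without LPS. Emp3, the largest share without LPS at 47.53% ± 1.17, made up 34.01% ± 0.204 with LPS. The ratio of Pmp22 to Emp3 was 1.5 with LPS and 0.687 without LPS, and that of Pmp22 to Emp1 was 3.42 with LPS and 1.65 without LPS. Each ratio had a 2-sided exact permutation p of 0.1, the smallest that 3 against 3 libraries allow. The ratio to Emp1 shares libraries with the comparisons that chose Emp1.

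Emp1 made up 21.11% ± 0.264 of the sum in high fructose with LPS, 18.97% ± 0.79 in high glucose with LPS, 14.93% ± 0.206 in control medium with LPS and 19.82% ± 1.09 in control medium without LPS. Its share was thus lower in control medium with LPS than without, although its level was higher. The ratio of Pmp22 to Emp3 was 1.5 in high fructose and 1.56 in high glucose (exact permutation p = 0.3), and 1.5 in control medium with LPS (p = 1 for fructose and 0.3 for glucose, exact permutation tests). The ratio of Pmp22 to Emp1 was 2.24 in high fructose and 2.61 in high glucose, with an exact permutation p of 0.1. The ratio of Emp1 to Emp3 was 0.668 in high fructose and 0.6 in high glucose (exact permutation p = 0.1), and 0.439 in control medium with LPS and 0.418 without LPS (exact permutation p = 0.4). These were 8 ratio comparisons, and the exact permutation p of 0.1, the smallest possible, became 0.2 after Benjamini-Hochberg adjustment over them. All those with Emp1 share libraries with the comparisons that chose Emp1, so they are no independent support.

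**Figure D3:**
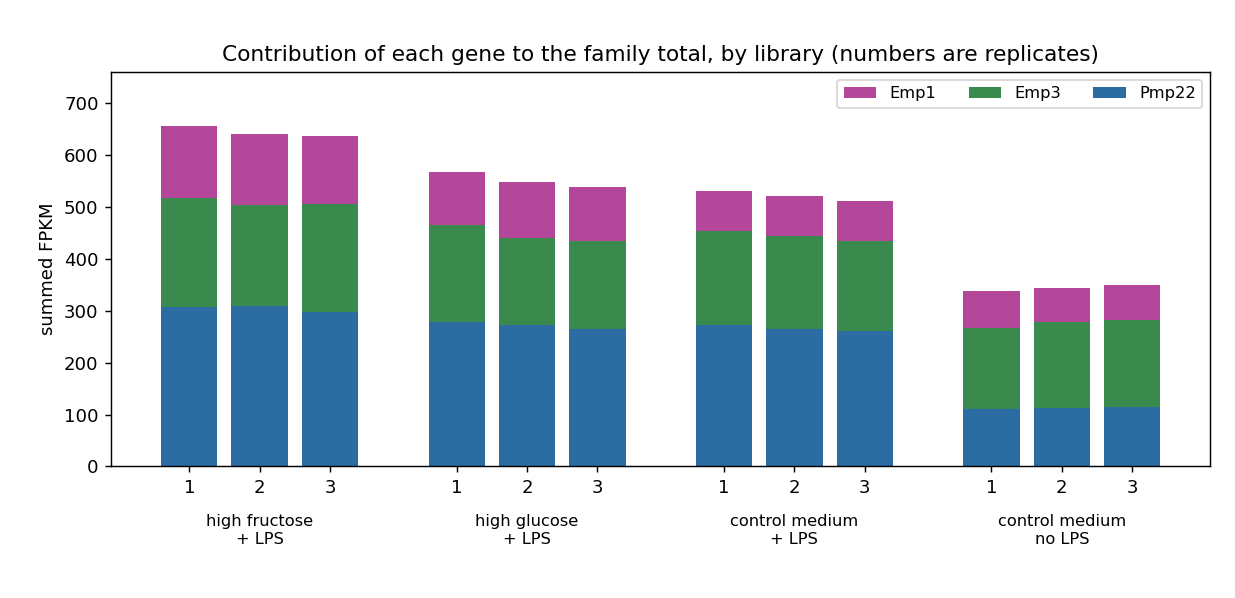
Summed FPKM of the family (vertical axis) in each of the 12 libraries, stacked by Emp1, Emp3 and Pmp22. Emp2, at most 0.0188% of the sum, is not drawn. On average Pmp22 holds 47.25% to 51.05% of the sum in the LPS-treated groups and 32.64% in control medium without LPS.

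The genes with a pattern most like that of Emp1 were ranked by Pearson's r of log2 CPM over the 12 libraries among 9278 protein-coding genes. The 6 highest were Mmp19 (r = 0.983), the myotubularin-related gene Mtmr10 (0.978), the lamin A/C gene Lmna (0.972), Tom1l2 (0.968), the glycosyltransferase gene Galnt6 (0.966) and the receptor gene Fgfr1 (0.963). Mmp19 averaged 168.1 CPM in high fructose with LPS, 96.57 in high glucose with LPS, 64.8 in control medium with LPS and 50.07 in control medium without LPS. Lmna averaged 2560, 2073, 1835 and 1663 CPM in the same order. The 4 lowest were the inhibitory Fc receptor gene Fcgr2b (r = -0.964), Cdca7l (-0.948), the sterol regulator gene Insig1 (-0.944) and Ppm1h (-0.943). Fcgr2b averaged 37.1 CPM in high fructose with LPS, 41.42 in high glucose with LPS, 55.24 in control medium with LPS and 60.09 in control medium without LPS. The 12 libraries hold only 4 group means, and 72 genes exceeded 0.9. Over the 9 LPS-treated libraries alone, the highest were Adra1a (0.976), Mmp19 (0.974), Mtmr10 (0.973) and Tsc22d1 (0.972).

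**Figure D4:**
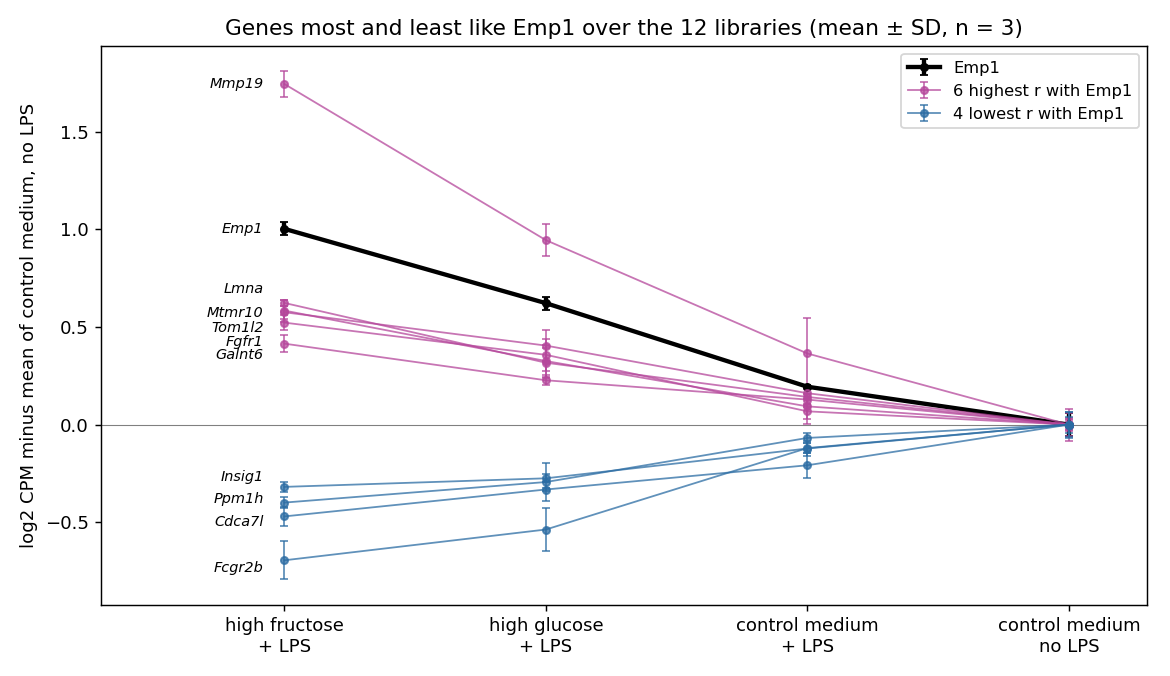
Log2 CPM of Emp1 (black), the 6 genes with the highest r to it (magenta) and the 4 with the lowest (blue) by group, relative to the mean of control medium without LPS (mean and SD, n = 3). Mmp19 spans a wider range than Emp1, and the other 5 magenta genes a narrower one.

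The other members had other neighbours. Emp3 was most like Vti1b (r = 0.946), Tmem65 (0.938) and Dap (0.937), and 13 genes exceeded 0.9. Pmp22 was most like Ehd1 (0.999), Mcl1 (0.998) and Plaur (0.998), and 719 genes exceeded 0.9. Between members, r was 0.809 for Emp1 and Emp3, 0.755 for Emp1 and Pmp22 and 0.705 for Emp3 and Pmp22. These are descriptions over the same 12 libraries.

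Genes on 6 lists drawn up around the family, with earlier results of these data known, were counted. For all 6 lists the background is the share of all 12766 tested genes called. This share was 28.8% for LPS (15.2% higher, 13.6% lower) and 1.56% for high glucose. It was 4.91% for high fructose and 3.72% for high fructose against high glucose. Whether the small lists differ from it was not tested. Of 29 relatives in the PMP22 and claudin superfamily, 4 passed the filter, and LPS raised 3 of them: Cldn23 (log2 fold change 2.15, from low levels of 1.005 ± 0.371 CPM with LPS and 0.2213 ± 0.0542 without LPS), Cldn12 (0.54) and Cldnd1 (0.30). In high fructose against control medium under LPS, Cldnd1 rose by 0.27 (56.98 ± 3.22 against 47.38 ± 2.04 CPM, SD, n = 3 each, edgeR adjusted p = 0.0205), a call lost without any 1 of 4 libraries (control medium with LPS 2 or 3, high fructose 1 or 3, adjusted p up to 0.11). Of this list, 0 were called for high glucose by edgeR, DESeq2 or limma, and 0 had an unadjusted p under 0.05. For high fructose against high glucose edgeR, DESeq2 and limma also called 0, and 1 had an unadjusted p under 0.05. The list's median log2 fold change was 0.42 for LPS, 0.12 for high glucose, 0.08 for high fructose and -0.06 for high fructose against high glucose, where the medians over all tested genes lay within 0.01 of 0.

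Of 19 reported partners and signalling genes, 15 passed the filter, and LPS called 4 higher and 2 lower, a split of 2 higher and 4 lower with library totals alone and of 3 and 2 with upper-quartile factors. With 1 library left out, 3 or 4 were called higher and 1 or 2 lower. Src, a tyrosine kinase, rose by 1.55 and Cd44, the hyaluronan receptor, by 0.79, while Itga6 fell by 0.62. Cd44 was also called in both fructose comparisons. It averaged 1617 ± 78.1 CPM in high fructose with LPS, 1311 ± 96 in high glucose with LPS and 1233 ± 29 in control medium with LPS (SD, n = 3 each). The log2 fold change was 0.39 against control medium (edgeR adjusted p = 5.99e-05) and 0.30 against high glucose (0.00135). For high glucose edgeR called 0 of the 15, with 3 at an unadjusted p under 0.05. DESeq2 called 1 and limma 0.

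P2rx7, the purinergic channel reported to bind EMP proteins, was not called in any of the comparisons by the main edgeR fit. That fit had the filter on low counts and no replicate block. It averaged 33.03 ± 2.79 CPM in high fructose with LPS, 30.07 ± 0.946 in high glucose with LPS and 37.48 ± 3.2 in control medium with LPS. High glucose did not overlap control medium (log2 fold change -0.32 ± 0.08, edgeR adjusted p = 0.0763), and the adjusted p was 0.0259 with DESeq2 and 0.0258 when genes of low count were kept. The integrin gene Itgb1 was called under LPS (0.14, adjusted p = 0.023), a call lost with library totals alone (0.05, adjusted p = 0.4), with upper-quartile factors (0.115) and without any 1 of 4 libraries (control medium with LPS 1 or 3, control medium without LPS 1 or 3, up to 0.0939). Its log2 fold change was 0.04 in high fructose and -0.02 in high glucose against control medium under LPS, with adjusted p of 0.787 and 0.916. Cav1 and Perp, with at most 5 and 10 counts per library, were not tested.

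Among 16 tested tetraspanins, another class of 4-pass membrane proteins, LPS called 2 higher and 4 lower, with Tspan32 at -1.36. This split was 1 higher and 7 lower with library totals alone and 1 and 6 with upper-quartile factors. High fructose against high glucose called Tspan14 (0.26, edgeR adjusted p = 0.019) and Cd9 (0.24, 0.00332) higher, and the Tspan14 call was lost without any 1 of 4 libraries (high fructose 1 or 2, high glucose 1 or 3, adjusted p up to 0.0924) or with only those 2 groups fitted (0.0862). High glucose called Tspan3 higher (0.21, 0.0219) and Cd81 lower (-0.26, 0.0211), and each call was lost without any 1 of 5 libraries. These were each control medium library with LPS, with high glucose 2 or 3 for Cd81 (adjusted p up to 0.111) and high glucose 1 or 3 for Tspan3 (up to 0.115). Cd9 and Tspan3 were named after their values were seen. In high fructose against control medium edgeR and DESeq2 called 0 of the 16 and limma called 1, with 3 at an unadjusted p under 0.05. Of 15 tested genes for other membrane proteins of blood cells, not all of them 4-pass, LPS called 5 higher and 3 lower (Laptm5, Syngr1 and Ostm1). Tm4sf1 lay at 1.91 (1.893 ± 0.223 CPM with LPS and 0.5001 ± 0.121 CPM without LPS). This split was 2 higher and 5 lower with library totals alone and 4 and 4 with upper-quartile factors, and without control medium with LPS 1 or control medium without LPS 3 it was 3 and 3. The sugar comparisons called 0 of these 15 by edgeR, DESeq2 and limma, with 1 at an unadjusted p under 0.05 for high glucose, 2 for high fructose and 2 for fructose against glucose.

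Of 15 names on a list of growth arrest-specific and related genes, such as cell cycle inhibitors, 13 matched exactly 1 gene counted and 10 were tested. In this list LPS called 2 higher (Gas7 and Gas8) and 3 lower (Gas6 and the inhibitors Cdkn1a and Cdkn2c). Without any 1 of the 6 libraries 3 of these 5 were called, and Gas8, Gas6 and Cdkn1a each lost the call in 4 of those 6 fits. With library totals alone or upper-quartile factors the split was 1 higher and 3 lower. Gas8 was named after its values were seen. Gas7, an actin-binding protein, was called higher in high fructose (log2 fold change 0.38, edgeR adjusted p = 0.000879) and in high glucose (0.29, 0.0219), at 268.2 ± 23.8, 253.1 ± 14.1 and 206.7 ± 9.34 CPM in high fructose, high glucose and control medium with LPS. Its high glucose call was lost without any 1 of 4 libraries (high glucose 2 or 3, control medium with LPS 1 or 3, adjusted p up to 0.113) and with limma (0.0692 and 0.0699). Cdkn1a, the cell cycle inhibitor p21, was lower in high fructose, at 138 ± 6.95 CPM against 179 ± 7.04 in control medium with LPS (log2 fold change -0.37, adjusted p = 0.000236), and lower than in high glucose with LPS at 174.6 ± 8.49 CPM (-0.34, 0.00107). Of 6 tested P2 receptors and partners, LPS called 4 higher, led by P2ry2 at 0.78, and P2ry1 lower at -1.18. The sugar comparisons called 0 of these 6 by edgeR, with 4 at an unadjusted p under 0.05 for high glucose, 3 for high fructose and 0 for fructose against glucose. DESeq2 called 2 for high glucose and limma 0, and both called 0 in the other sugar comparisons.

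The median log2 fold change of the partner list was -0.02 for LPS, -0.01 for high glucose, 0.04 for high fructose and 0.10 for high fructose against high glucose. In the same order the medians were -0.08, -0.04, 0.03 and 0.03 for the tetraspanins. They were 0.08, -0.02, -0.07 and 0.00 for the other membrane proteins of blood cells, and 0.01, 0.03, 0.05 and 0.02 for the growth arrest list. Those of the P2 list, which shares P2rx7 with the partner list, were 0.48, -0.16, -0.09 and 0.06.

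**Figure D5:**
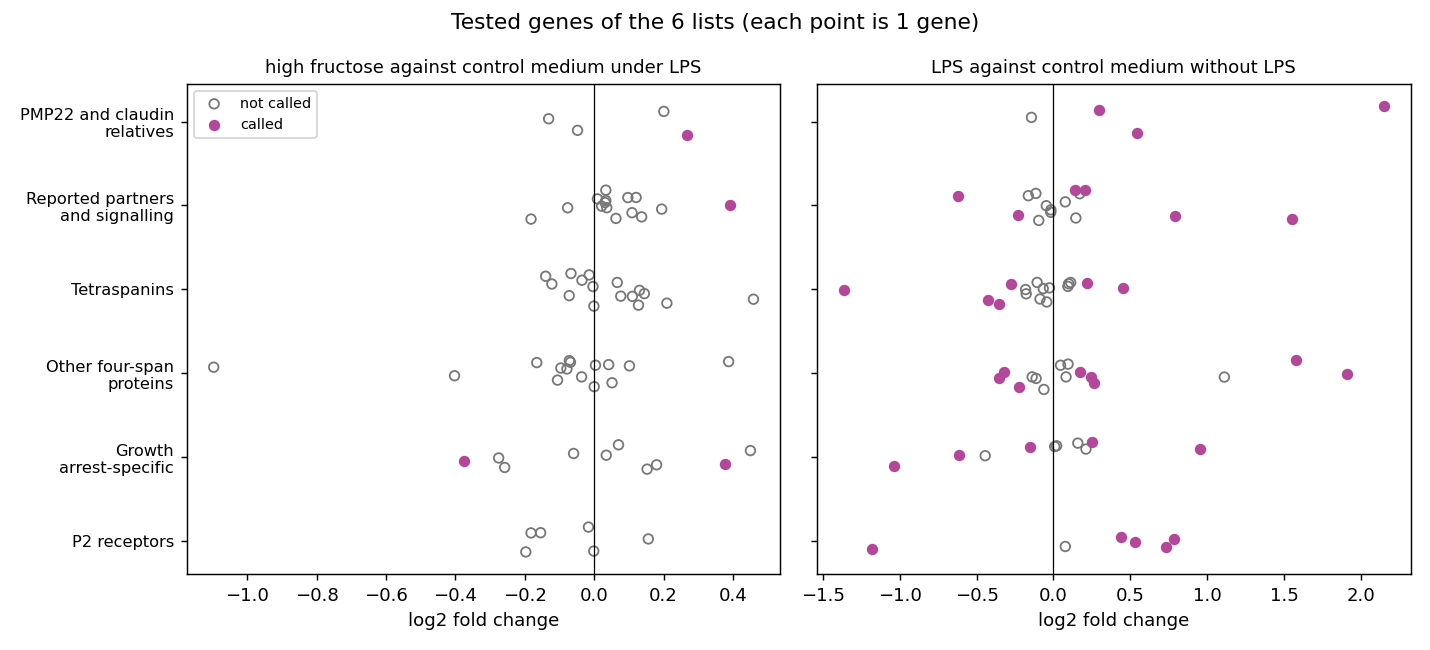
Log2 fold change (horizontal axis) of each tested gene of the 6 lists in high fructose against control medium under LPS and in LPS against control medium without LPS. Filled points are genes called at an adjusted p below 0.05, open points are not. The left panel holds 4 filled points (Cldnd1, Cd44, Gas7 and Cdkn1a).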

How the data were processed

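RNA sequencing of 12 N9 libraries was deposited as raw counts per gene and as FPKM. The authors made the counts with featureCounts 1.5.0-p3 on mm10, per the submitters' processing notes. The deposited FPKM values equal the count over gene length and 1 constant per library, to within 1.18e-07% for values of 200 counts or more. That constant is not the library total. It moved with the TMM factors, which were 1.052 and 0.9851 in library 1 of control medium without and with LPS. Levels in FPKM and the limma settings therefore carry a scaling close to TMM. The sources used here do not give the aligner, the annotation release or the strand setting. Genes passing filterByExpr were fitted with edgeR 4.0.16 (TMM factors, quasi-likelihood test, all 12 libraries, 1 coefficient per group) in R 4.3.3. P-values were adjusted by Benjamini-Hochberg over all 12766 tested genes, with a threshold of 0.05, and the fit was tested on simulated data. The lowest chi-square per degree of freedom between libraries of a group was 3.47, so none counted as the same library. Alternatives were DESeq2 1.42.0, limma 3.58.1 on log2 of FPKM plus 0.1 or 1, other scalings, no filter, only the groups compared, a replicate block and leaving out each library. Members and lists were chosen with earlier results of these data known. Named genes were the 4 members, up to 4 genes per list with the smallest adjusted p plus P2rx7, Itgb1, Cav1 and Perp, and the genes with the most extreme r (mean of at least 5 CPM, prior count 2), except where the text says otherwise. Gene models came from GENCODE M21, with BLAST 2.17.0+ and Biopython 1.88 for identity, and promoters from RefSeq.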

Additional observations from a re-analysis of the deposited data

How the results depend on the processing

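The high fructose rise of Emp1 lay between 0.791 and 0.827 and its high glucose rise between 0.41 and 0.443 on the log2 scale with 1 library left out. Its LPS difference was 0.103 with library totals alone (adjusted p = 0.0643), the lowest of its settings. Pmp22 under LPS kept its call in every setting run, at 1.23 to 1.26 with 1 library left out, and its high fructose rise at 0.18 to 0.213. Pmp22 in high fructose against high glucose lay at 0.142 to 0.179 with 1 library left out, at 0.16 with no filter and at 0.163 with only the groups compared, where the call was lost. Emp3 lay at 0.179 to 0.235 in high fructose against control medium and at 0.194 to 0.27 against high glucose with 1 library left out, and at 0.224 against high glucose with only the groups compared. Its LPS difference was 0.126 and called with only the groups compared, 0.0281 with library totals alone and 0.07 with upper-quartile factors, and its high glucose difference lay at -0.0652 to 0.00764 with 1 library left out, changing sign. P2rx7 under LPS was -0.0127 with library totals alone, and Itgb1 in high glucose lay at -0.0481 to 0.0101 with 1 library left out. The cause of these changes was not tested.

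Replicate numbers were not taken to pair the libraries, since r of same-numbered libraries ran from -0.194 to 0.243 and 4 of 18 pairs exceeded 0.1. As a hint from the data and not the design, 7 of 12 libraries correlated best with their own number, and library 1 had the lowest mitochondrial share in each group (0.564% in high fructose, 0.518% in high glucose, 0.581% in control medium with LPS and 0.618% without LPS). With the replicate block no member call changed, and P2rx7 in high glucose was the 1 named call that did (-0.317, adjusted p = 0.039). All genes called for high glucose numbered 199, and 329 with DESeq2, 427 with no filter, 118 and 126 with limma, 391 with the replicate block and 67 to 177 with 1 library left out. It was 67, 74 and 71 without control medium library 1, 2 or 3 with LPS and 70 without high glucose library 3. For high fructose against high glucose the 475 calls became 247 with only the groups compared and 735 with the block. Depth limits Emp2 alone among the members.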
